A study of Mus musculus with 6 samples.

Results

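Complex IV, or cytochrome c oxidase, is the last enzyme of the mitochondrial respiratory chain, and several of its nuclear-encoded subunits exist as tissue isoforms. The 10 genes described here are *AA467197*, *Ndufa4*, *Ndufa4l2*, *Cox4i1*, *Cox4i2*, *Cox6a1*, *Cox6a2*, *Cox6b2*, *Cox7a1* and *Cox8b*, out of 23462 genes with a matched probe on the arrays and 14712 genes tested. Each of the 10 genes had 1 probe. They were chosen by gene symbol with the difference between miR-22 KO and WT mice already known, *AA467197* because it was higher in KO mice. Their KO minus WT differences are therefore given as a description, without a test.

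Brown adipose tissue (BAT) of male mice aged 8 weeks was measured with 1 mouse per array, and 3 WT mice were compared with 3 miR-22 KO mice. The KO mice came from the Jackson Laboratory and lack miR-22 in the whole body, so that cells other than adipocytes lack it too. All 6 mice were male, and the labels name no treatment or strain. The study describes the controls as littermates of the KO mice, without tying one mouse to another. RNA of the whole tissue was labelled with 1 dye. In such tissue, fewer cells of a type and less RNA per cell cannot be told apart. The arrays had no probe for miR-22 itself. The transcript that carries it, *Mir22hg*, had a scaled signal of 1.37 ± 0.28 in WT mice and 2.12 ± 0.11 in KO mice (log2, SD, n = 3 each), which does not show whether the mature miRNA was present.

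Complex IV takes electrons from cytochrome c, passes them to oxygen and pumps protons across the inner mitochondrial membrane. In brown adipocytes, the proton gradient is spent as heat through UCP1. The catalytic core is encoded by mitochondrial DNA, and the nuclear-encoded subunits around it differ between tissues, with pairs of a widely used and a tissue-restricted form. NDUFA4 was first counted as a complex I subunit and later as a subunit of complex IV. *AA467197*, also called *Nmes1*, encodes a small mitochondrial relative of NDUFA4 that is known to be induced in macrophages by inflammatory signals and can take the place of NDUFA4. Its gene also holds the hairpin of miR-147.

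The miRNAs shown are the 5p and 3p arms of the deleted miR-22 and the 5p arm of miR-147. Their seeds (bases 2 to 8, in capitals) set which transcripts they can pair with. The 3p arm of miR-147 was absent from the sequences used here, so its seed is not shown. The sequences are from RefSeq on build GRCm38.p6. miR-22 lies on the plus strand at chr11:75463734-75463755 (5p) and chr11:75463772-75463793 (3p), and miR-147-5p lies on the plus strand at chr2:122640814-122640837, inside the span of *AA467197*. The 3 seeds shown differ from each other.
mmu-miR-22-3p: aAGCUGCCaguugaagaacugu
mmu-miR-22-5p: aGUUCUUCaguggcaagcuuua
mmu-miR-147-5p: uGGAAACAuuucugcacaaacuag

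Of the 10 genes, 6 had a RefSeq promoter of 300 bases, from 250 bases before to 50 bases after the transcription start. The promoters of *AA467197* (chr2:122637637-122637936, plus strand) and *Cox6b2* (chr7:4753045-4753344, minus strand) are shown because these were the genes whose KO arrays lay above every WT array. For *AA467197*, capitals mark both E-box matches (CANNTG) and the AP-1 match (TGANTCA). For *Cox6b2*, capitals mark the GC box (GGGCGG) and the 3 CCAAT matches on either strand.
*AA467197*: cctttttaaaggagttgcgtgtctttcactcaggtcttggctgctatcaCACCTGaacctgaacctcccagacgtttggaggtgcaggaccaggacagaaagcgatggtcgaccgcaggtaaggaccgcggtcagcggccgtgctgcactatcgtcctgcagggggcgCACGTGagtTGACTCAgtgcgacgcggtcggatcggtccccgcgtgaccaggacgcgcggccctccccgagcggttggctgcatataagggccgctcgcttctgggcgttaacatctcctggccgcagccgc
*Cox6b2*: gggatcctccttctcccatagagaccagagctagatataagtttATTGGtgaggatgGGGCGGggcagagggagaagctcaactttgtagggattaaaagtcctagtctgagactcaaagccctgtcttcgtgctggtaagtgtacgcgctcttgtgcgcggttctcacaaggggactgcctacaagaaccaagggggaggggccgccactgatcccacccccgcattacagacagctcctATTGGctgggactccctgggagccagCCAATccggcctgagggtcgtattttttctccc

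The AP-1 letters (TGANTCA) stood in 7.81% of all 32851 mouse promoters searched on both strands. Among the 6 promoters of these genes, they stood only in that of *AA467197*, 73 bases before the start. E-box letters stood in 72.3% of all promoters and the hypoxia core ACGTG in 19.6%. The promoters of *AA467197*, *Cox7a1* and *Cox8b* held both, and in *AA467197* the ACGTG match overlaps an E-box. CCAAT was found in 37.4% of all promoters and in those of *Cox6a1*, *Cox6b2* and *Cox7a1*, and GGGCGG in 35.7% and in those of *Cox6a1* and *Cox6b2*. The *AA467197* promoter had 29 CG dinucleotides and that of *Cox8b* had 2, against a median of 7 over all promoters. Of the 15 motifs searched, the TATA letters TATAAA (13.6% of all promoters) stood in *Cox8b*, the C/EBP letters TTGCNNAA (10.8%) in *Cox6a1* and *Ndufa4*, and the NF-kB motif (8.46%) in *Cox6b2*. The ETS core CCGGAA (14.9%) and GCGCATG of NRF1 (3.91%) stood in *Cox6a1*. The ERR letters AAGGTCA, the interferon GAS letters TTCNNNGAA, the CRE (TGACGTCA and its shorter form TGACG) and the MEF2 motif were in 0 of the 6. These matches describe the letters only.

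Signals are given as scaled signals, which are log2 of the scanner's processed signal minus the 75th percentile of the same array, and they can be compared between mice for 1 probe but not between probes. Of the 10 genes, 9 were well above background on all 6 arrays. The exception was *Cox6a2* on the array of WT mouse 3. The scanner software marked some spots as uneven or as outliers, which touched *Ndufa4* (WT 1, WT 3, KO 1 and KO 2), *Cox8b* (WT 3, KO 1 and KO 2), *Cox7a1* (WT 3 and KO 3) and *Cox4i1* (WT 3). Without marked spots, *Ndufa4* and *Cox8b* kept too few values for a fit, and 8 of the 10 genes could be fitted. Values of single mice and differences of the 10 genes, of marker lists and of chromosomal neighbours include the marked spots unless stated, whereas the fit over the other complex IV genes leaves them out. The arrays of WT 3 and KO 1 had 17.07% and 15.14% of their spots marked, and the others 4.87% to 6.12%. WT 1 and WT 2 lay in row 1 of the slide, and WT 3 and all KO mice in row 2, so row and genotype overlap in part.

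*AA467197* was higher in every KO mouse than in any WT mouse. Its scaled signal was -2.99, -2.73 and -2.82 in WT mice 1 to 3 and -0.53, -1.11 and -0.78 in KO mice 1 to 3. All KO mice lay above all WT mice, with a gap between the groups wider than the spread within either. Means were -2.85 ± 0.13 in WT and -0.81 ± 0.29 in KO (SD, n = 3 each), a difference of 2.04 (SE 0.18), or 4.11-fold. Before scaling, the intensities were 249, 217 and 227 in WT and 1752, 1219 and 931 in KO mice. Within row 2 of the slide, the mean of the KO mice exceeded WT 3 by 2.01. Without each mouse in turn the difference was 1.90 to 2.19.

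*Ndufa4*, which encodes the complex IV subunit that the AA467197 protein resembles, was bright in every mouse. It measured 5.03, 5.41 and 5.0 in WT mice and 4.65, 4.63 and 5.07 in KO mice. KO 3 lay inside the WT range, and the mean difference was -0.36 (SE 0.19). With quantile normalization, which forces the same distribution of signals on all arrays, the difference was -0.05 (SE 0.09). *Ndufa4l2*, a further relative that is known as a target of hypoxia-inducible factors, measured -1.26, -1.07 and -1.14 in WT and -1.27, -1.36 and -1.21 in KO mice, with overlapping groups and a difference of -0.13 (SE 0.13). Of the NDUFA4 relatives, *AA467197* had values apart from WT in each KO mouse under this scaling, whereas those of *Ndufa4* and *Ndufa4l2* overlapped. With quantile normalization both lay below every WT mouse in all KO mice, *Ndufa4l2* with a difference of -0.20 (SE 0.11).

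**Figure D1:**
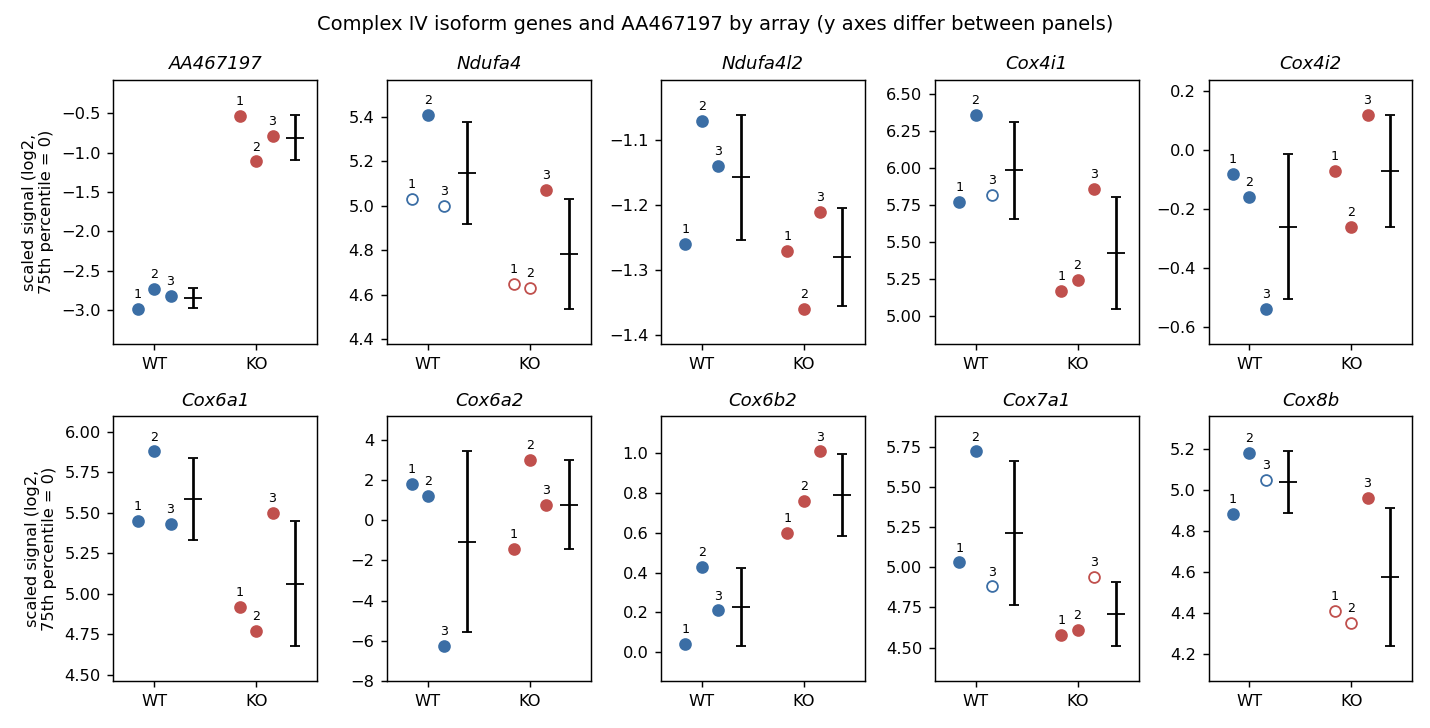
Scaled signal (log2, 75th percentile of each array set to 0) of each of the 10 genes in WT (blue) and KO (red) mice. Numbers are mice, open circles are spots marked by the scanner software, and black bars are mean ± SD (n = 3). *AA467197* and *Cox6b2* are the panels in which all KO points lie above all WT points, and *Cox6a2* has 1 WT point at -6.26.

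The widely used isoforms *Cox4i1* and *Cox6a1* were high in all mice and lower on average in KO mice. *Cox4i1*, the common form of subunit 4, measured 5.77, 6.36 and 5.82 in WT and 5.17, 5.24 and 5.86 in KO mice. KO 3 lay above WT 1 and WT 3, so the groups overlapped, and the difference was -0.56 (SE 0.25). *Cox6a1*, the common form of subunit 6A, measured 5.45, 5.88 and 5.43 in WT and 4.92, 4.77 and 5.50 in KO mice, a difference of -0.53 (SE 0.23). Again KO 1 and KO 2 were low and KO 3 was within the WT range. With quantile normalization the differences were -0.21 (SE 0.09) and -0.22 (SE 0.11).

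*Cox4i2*, the form of subunit 4 known from lung and from low oxygen, was not separated between the groups. It measured -0.08, -0.16 and -0.54 in WT and -0.07, -0.26 and 0.12 in KO mice, a difference of 0.19 (SE 0.18). WT 3 was the lowest mouse, and against WT 3 alone, in the same slide row, the KO mean was higher by 0.48. Scaling to the median of the probes detected on each array turned the difference to -0.17. A list of 15 hypoxia response genes, all above background on all arrays, had mean scaled signals of 1.47, 1.24 and 1.27 in WT and 1.27, 1.06 and 1.14 in KO mice, which overlap. The summed level, in which the brightest genes weigh most, was 78 to 86.1 times the 75th percentile in WT mice and 60.1 to 71.9 times in KO mice. Single genes went both ways, with *Ankrd37* at -1.56 and *P4ha1* at -1.36, and *Car9* at 0.88 and *Egln3* at 0.84.

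*Cox6b2*, known as the testis form of subunit 6B, was detected in BAT of every mouse. It measured 0.04, 0.43 and 0.21 in WT and 0.60, 0.76 and 1.01 in KO mice. The lowest KO mouse exceeded the highest WT mouse by a small margin. Means were 0.23 ± 0.20 and 0.79 ± 0.21 (SD, n = 3 each), a difference of 0.56 (SE 0.17), or 1.48-fold. The difference was 0.45 to 0.66 without each mouse in turn and 0.59 (SE 0.15) with quantile normalization. It was 0.20 with scaling to the median of the probes detected on each array.

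The forms known from heart and skeletal muscle had different patterns over the mice. *Cox6a2*, the muscle form of subunit 6A, measured 1.82, 1.22 and -6.26 in WT and -1.41, 3.01 and 0.75 in KO mice. Intensities ran from 21.0 in WT 3, not well above background, to 21252 in KO 2. The difference of 1.86 had an SE of 2.20, and it was -0.73 without WT 3 and 7.04 for the KO mean against WT 3 alone. A list of 26 skeletal muscle genes had mean scaled signals of 2.16, 1.39 and -4.04 in WT and -0.32, 3.28 and 1.27 in KO mice, the same order of mice as *Cox6a2*. On the array of WT 3, 17 of the 26 muscle genes were above background, and on each other array all 26 were. The summed level of the list was 17.3 to 184 in WT and 45.4 to 320 in KO mice, in multiples of the 75th percentile. On WT 3, *Ckm*, the muscle creatine kinase, and the fast myosin genes *Myh1*, *Myh2* and *Myh4* measured -7.98, -6.83, -6.54 and -8.06, all not well above background. Other muscle genes were detected there, such as *Myl1* at 3.31, above KO 1 at 3.06, and *Mb* at 0.40. The part of muscle RNA in the *Cox6a2* values was not tested, and the sources do not say how BAT was freed from the muscle beside it.

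Among 10413 genes with 6 unmarked values, all well above background, those closest to *Cox6a2* over the 6 mice were *Tnni2*, *Tnnt3*, *Mybpc2*, *Jsrp1* and *Ryr1*. Muscle genes not well above background on WT 3, such as *Ckm* and *Myh4*, could not be picked. *Tnni2* and *Tnnt3* encode fast muscle troponins, *Mybpc2* a myosin-binding protein, and *Jsrp1* and *Ryr1* proteins of the muscle calcium release machinery. Closeness was the root mean square difference of values centred on each gene's mean, 0.54 for *Tnni2* and 0.97 for *Ryr1* on the log2 scale. *Tnni2*, *Tnnt3* and *Ryr1* are themselves on the skeletal muscle list. *Tnni2* measured 3.98, 3.72 and -4.46 in WT and 1.77, 4.51 and 3.19 in KO mice.

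*Cox7a1* and *Cox8b*, the muscle forms of subunits 7A and 8, are also known from brown fat, and both were bright in WT 3. *Cox7a1* measured 5.03, 5.72 and 4.88 in WT and 4.58, 4.61 and 4.94 in KO mice. KO 3 lay above WT 3, so the groups overlapped, with a difference of -0.50 (SE 0.24). Without its marked spots on WT 3 and KO 3, the difference was -0.78 (SE 0.28), and with quantile normalization of all spots it was -0.19 (SE 0.14). Within row 2 of the slide, the KO mean differed from WT 3 by -0.17, with marked spots kept. *Cox8b* measured 4.88, 5.18 and 5.05 in WT and 4.41, 4.35 and 4.96 in KO mice, a difference of -0.46 (SE 0.20) that was -0.20 (SE 0.11) with quantile normalization. The intensity of *Cox7a1* on WT 3 was 47192 and that of *Cox8b* 53002, both from marked spots, on an array where the muscle list was at its lowest. The part of muscle RNA in the values of these genes was not tested. A list of 14 brown adipocyte genes, all above background on all arrays, had mean scaled signals of 2.39, 2.66 and 2.51 in WT and 2.33, 2.04 and 2.51 in KO mice, and its member *Ucp1* was detected in all mice. Of the 14, 5 were below every WT mouse in all KO mice (*Dio2*, *Ppargc1a*, *Otop1*, *Cpt1b* and *Pank1*), and 0 were above. Over 16111 genes, 17.1% lay below in this way. Differences of the 5 ran from -0.68 (*Dio2*) to -0.24 (*Pank1*), and from -0.49 to -0.06 with quantile normalization.

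**Figure D2:**
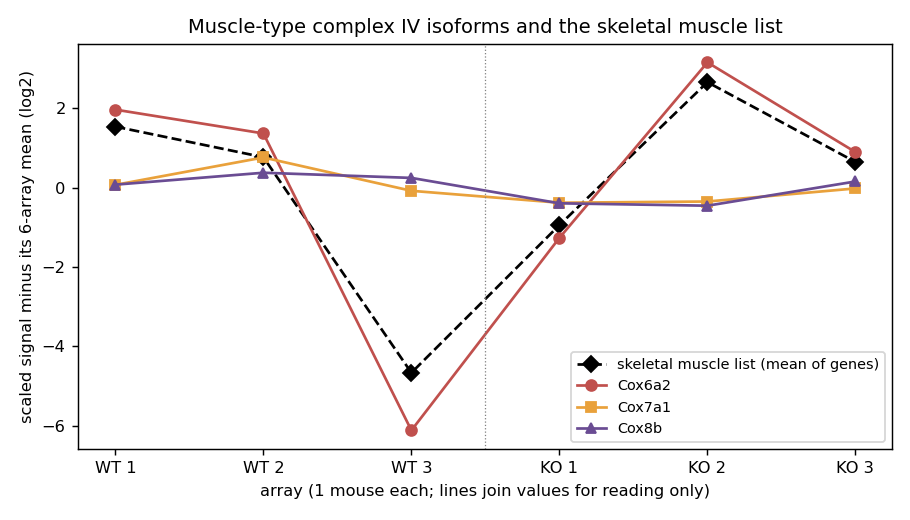
Scaled signal (log2) minus its mean over the 6 arrays, by mouse, for *Cox6a2*, *Cox7a1* and *Cox8b* and for the mean of the skeletal muscle list (dashed). *Cox6a2* and the muscle list are both lowest in WT 3 and highest in KO 2, while *Cox7a1* and *Cox8b* stay within 1 unit of their own means.

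Of the 6 genes with lower averages in KO mice, 5 were among the brightest on the arrays, and *Ndufa4l2* was not. *Ndufa4*, *Cox4i1*, *Cox6a1*, *Cox7a1* and *Cox8b* all lay in the brightest 1 of 10 equal groups of genes by signal, in which the median KO minus WT difference over 1611 genes was -0.29 with 75th percentile scaling and -0.05 with quantile normalization. The 75th percentile itself was 1984, 1435 and 1602 in WT and 2538, 2633 and 1599 in KO mice, and each of these genes had its highest scaled signal in WT 2, whose percentile was the lowest. *Cox4i1* had intensities of 108504, 118002 and 90415 in WT and 91465, 99274 and 93161 in KO mice before scaling. The part of the scaling in these differences was not tested. *AA467197* lay in group 4 when the genes were divided into 10 groups from dim to bright, and its difference was 2.04 and 1.95 under the same scalings.

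**Figure D3:**
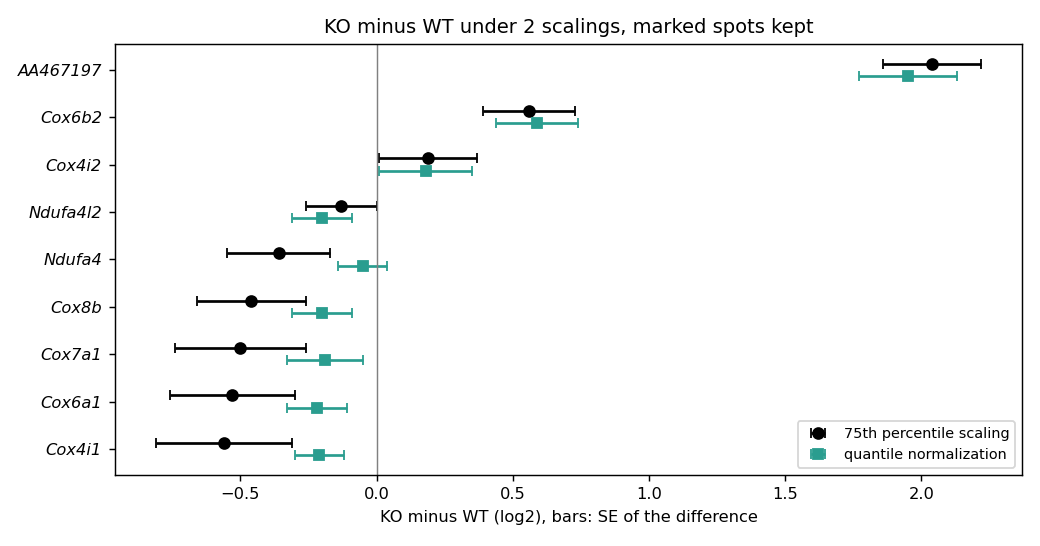
KO minus WT difference (log2) with its SE for 9 of the 10 genes under 75th percentile scaling (black) and quantile normalization (green), marked spots kept. *Cox6a2*, with an SE of 2.20, is left out. *AA467197* and *Cox6b2* keep their position, and the 5 bright genes move toward 0 with quantile normalization.

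Over all 10 genes, 6 were lower and 4 higher on average in KO mice. Groups did not overlap for 2 genes with KO above WT (*AA467197* and *Cox6b2*) and for 0 genes with KO below WT, against 11.6% and 17.1% of 16111 genes. With quantile normalization the numbers were 2 above and 5 below, against 10.6% and 15.9% of genes. Since these values chose the genes, the counts carry no evidence of their own. In limma's test over all genes without marked spots, 1476 (10%) were called higher and 1296 (8.81%) lower at an unadjusted p below 0.05, and 0.143% and 0.0408% after Benjamini-Hochberg adjustment. The unadjusted counts became 1169 and 1502 with quantile normalization, and 217 and 2585 with scaling to the median of the probes detected on each array. That last scaling moved the median of all genes from -0.03 to -0.34.

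The other genes of complex IV were listed by function and were tested. Of 11 further subunits and 28 assembly factors, 24 were tested. Among the assembly factors, 4 of 21 fell at an unadjusted p below 0.05 in limma's test without marked spots, where 8.81% of all genes did. None rose, and 0 passed after adjustment. With the slide row as a block, 0 of 14 tested complex IV genes were called lower, against 298 of 12352 over all genes. With so few genes called in that setting, the 0 of 14 does not set complex IV genes apart from the rest. In the processed table the counts were 1 of 19 complex IV genes, against 1495 of 13218 over all genes. With marked spots kept they were 10 of 36, against 1794 of 16111. None of the 3 tested subunits passed. The median difference was -0.31 for the assembly factors and -0.37 for the subunits, against -0.03 for all genes and -0.27 for the brightest 1 of 10 groups in the same fit. With quantile normalization the medians were -0.19 and -0.15, and 3 assembly factors were called.

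*Smim20*, which stabilizes newly made COX1, measured 2.69, 3.15 and 2.87 in WT and 2.13, 2.23 and 2.44 in KO mice, and fell by 0.64 (SE 0.17, limma adjusted p = 0.136). With marked spots kept, a brighter probe stood for *Smim20*, and its difference was -0.42. *Sco1*, a copper chaperone, fell by 0.51 (SE 0.16, limma adjusted p = 0.182), and its value rests on WT 1 and WT 2. *Cox19* and *Cox16*, which act in copper handling and in the assembly of COX2, fell by 0.50 (SE 0.19) and 0.42 (SE 0.17), the latter also with 2 WT mice. *Cox20*, a chaperone of COX2, had a difference of -0.53 (SE 0.23) that did not pass without marked spots, and of -0.56 that passed limma's test with them (unadjusted p = 0.0179). *Pet117* had the highest difference of the tested assembly factors, at 0.00 (SE 0.18). The tested subunit genes *Cox7a2*, the widely used counterpart of *Cox7a1*, *Cox7a2l* and *Cox7c* had differences of -0.45 (SE 0.23), -0.37 (SE 0.27) and -0.36 (SE 0.23).

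**Figure D4:**
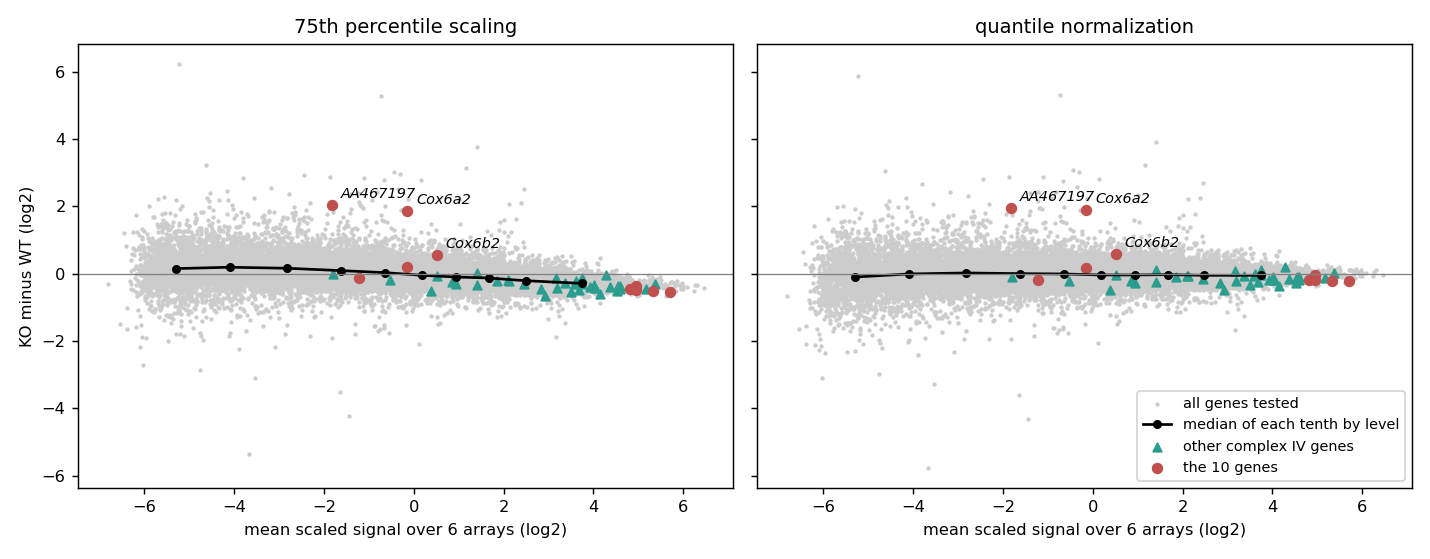
KO minus WT difference (log2) against mean scaled signal over the 6 arrays for all genes (grey), the other complex IV genes (green triangles) and the 10 genes (red), marked spots kept, with 75th percentile scaling (left) and quantile normalization (right). The black line joins the medians of 10 equal groups of genes by signal. It reaches -0.29 in the brightest group on the left and to -0.05 on the right, and *AA467197* lies about 2 units above it in both.

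Because *AA467197* is known from activated macrophages and from epithelium, lists of such genes were set beside it. A list of 14 macrophage genes, all above background on all arrays, had mean scaled signals of 0.99, 0.99 and 1.21 in WT and 1.16, 1.47 and 1.28 in KO mice, and summed levels of 52 to 57 and 49.8 to 60.4. The sums rest most on the brightest gene, *Itgam*, at 4.57, 4.79 and 4.51 in WT and 4.12, 4.05 and 4.67 in KO mice. A list of 20 inflammatory response genes, 17 of them above background on all arrays, had means of -2.65, -2.96 and -3.21 in WT and -1.78, -2.70 and -2.73 in KO mice. KO 1 was the highest mouse for this list and for *AA467197*. In KO 2 and KO 3 the mean of the list lay within the range of the WT mice. Single genes of the list differed, and 8 of the 17 detected genes were above every WT mouse in all KO mice (*Tnf*, *Nos2*, *Acod1*, *Ccl4*, *Tnfaip3*, *Lcn2*, *Cd40* and *Slpi*), as *AA467197* was, and 0 were below. Over 16111 genes, 11.6% lay above every WT mouse in this way and 17.1% below. Differences of the 8 ran from 0.31 (*Cd40*) to 2.24 (*Ccl4*), and from 0.13 to 2.06 with quantile normalization. In the dimmest 4 of 10 groups of genes by signal, median differences were 0.09 to 0.19, and -0.10 to 0.02 with quantile normalization. The part of the scaling in the list was not tested. The chemokine gene *Ccl4* measured -4.13, -4.55 and -5.40 in WT and -1.29, -3.00 and -3.07 in KO mice. *Tnf*, an inflammatory cytokine gene, differed by 0.87, and *Acod1*, which encodes the enzyme that makes itaconate, by 0.68. Other genes of the list had lower averages in KO mice, namely *Il1b* (-0.63), *Il6* (-0.58), *Icam1* (-0.42), *Ptgs2* (-0.09) and *Nfkbiz* (-0.09). *Il1b* was below every WT mouse in KO 2 and KO 3, and *Il6* and *Ptgs2* were not above background on all arrays. Of the 14 macrophage genes, *C1qb* (0.41) and the Fc receptor gene *Fcgr1* (1.04) were above every WT mouse in all KO mice, and 0 were below. The share of macrophage genes above was close to that over all genes. Summed levels of the inflammatory response list were 14.2 to 17.2 in WT and 15.6 to 21.8 in KO mice. The list of 14 epithelial genes had mean scaled signals of -5.66, -5.66 and -6.05 in WT and -5.40, -5.44 and -5.71 in KO mice, and summed levels of 0.45 to 0.673 and 0.624 to 0.749. With quantile normalization the means were 5.42, 5.34 and 4.99 in WT and 5.10, 5.39 and 5.18 in KO mice. KO 1, highest before, was then within the WT range. On its array 4 of the 14 genes were above background, against 5 to 8 on the other arrays. Of these genes, *Krt18*, *Krt19*, *Cldn7* and *Ovol1* were above background on all arrays, and *Krt8*, *Krt5*, *Krt14*, *Cldn4* and *Elf3* on 0 arrays. *Krt18* measured -3.52, -3.28 and -3.29 in WT and -2.95, -2.85 and -2.85 in KO mice, without overlap, and *Krt19*, *Cldn7* and *Ovol1* overlapped with differences of 0.10, 0.17 and 0.61. A list of 11 white adipocyte genes, 10 of them above background on all arrays, had means of -2.62, -2.60 and -2.66 in WT and -2.27, -1.98 and -1.79 in KO mice. Of these 10, 4 were above every WT mouse in all KO mice (*Nnat*, *Mest*, *Wfdc21* and *Trim14*), and 1 was below (*Hoxc8*). The part of these cells in the *AA467197* difference was not tested.

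The 5 genes closest to *AA467197* over the 6 mice were *Grhl3*, *Tlr1*, *Tsku*, *Slc7a8* and *Cib4*, with root mean square differences of 0.12, 0.23, 0.23, 0.28 and 0.30. They were picked among 10412 genes with 6 unmarked values, all well above background. *Grhl3* encodes an epithelial transcription factor, *Tlr1* a receptor for bacterial lipoproteins, *Tsku* a secreted protein and *Slc7a8* an amino acid transporter. *Grhl3* measured -5.93, -5.42 and -5.61 in WT and -3.17, -3.93 and -3.36 in KO mice, low on all arrays. *Tlr1* measured -5.14, -4.68 and -5.38 in WT and -2.75, -3.08 and -3.26 in KO mice. Since they were picked for likeness to a gene that differed, all of them were higher in KO mice, by 1.65 to 2.17.

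**Figure D5:**
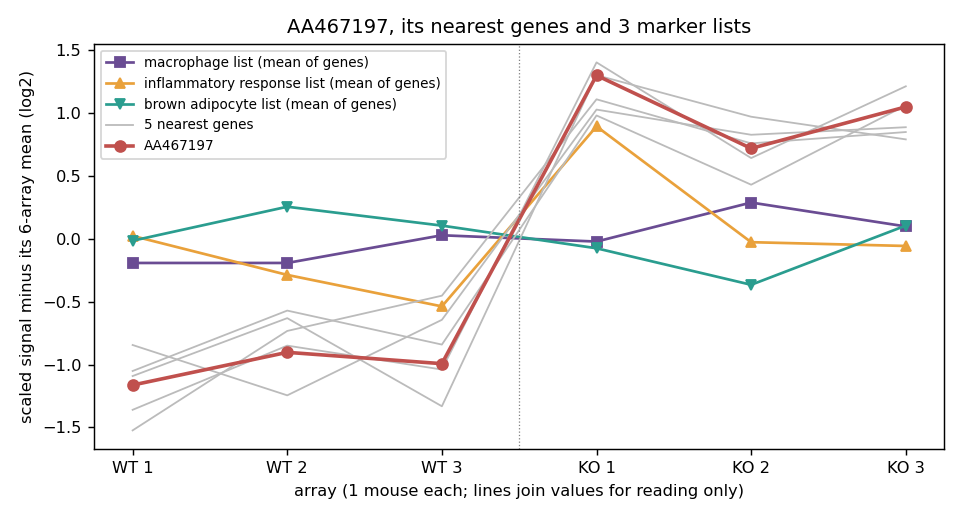
Scaled signal (log2) minus its mean over the 6 arrays, by mouse, for *AA467197* (red), its 5 nearest genes (grey) and the means of the macrophage, inflammatory response and brown adipocyte lists. *AA467197* is higher in all KO mice, and the inflammatory response list stands out in KO 1.

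The genes beside *AA467197* on its chromosome were read as a further description. The 3 measured genes on either side were *Slc28a2b*, *Gatm* and *Spata5l1*, and *Slc30a4*, *4930417H01Rik* and *Bloc1s6*. *Spata5l1* had a difference of -1.0 (SE 1.17) that rests on KO 3 at -7.88, since KO 1 and KO 2 were at -3.21 and -3.51 and the WT mice at -3.76, -4.32 and -3.50. The other differences ran from -0.37 (SE 0.14) for *Bloc1s6* to 0.67 (SE 0.38) for *Gatm*, which encodes the first enzyme of creatine synthesis. The zinc transporter gene *Slc30a4*, the next measured gene on the downstream side, had scaled signals of 1.31, 1.39 and 1.38 in WT and 1.62, 1.18 and 1.56 in KO mice, with overlapping groups and a difference of 0.09 (SE 0.16). Beside *Cox6b2*, the closest measured genes *Kmt5c* and *Il11* had differences of -0.52 (SE 0.20) and -0.28 (SE 0.25).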

How the data were processed

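RNA of whole BAT from 6 mice (3 WT, 3 miR-22 KO) was hybridised to Agilent mouse arrays with 1 dye. Per the file headers, the intensity values deposited by the authors came from Agilent Feature Extraction (11.5.1.1 in the headers, 10.7 in the submitters' processing notes), with background subtracted and no scaling between arrays. The authors also deposited log2 values of 27497 probes, and how these were made is not given in the sources used here. Each column of that table correlated with its own array at r of at least 0.9997.

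For each array, the 75th percentile over 59305 non-control spots was set to 0 on the log2 scale. RefSeq gave a gene for 33767 of 56605 probes (59.7%). A probe was used if its signal was well above background on 3 or more arrays and 2 or more unmarked values remained in each group, and the brightest such probe stood for its gene. Marks removed 4413 of 35653 detected probes. The main test was limma 3.58.1 (lmFit and eBayes, two-sided, in R 4.3.3), at the unadjusted p of 0.05 that the study's methods use and after Benjamini-Hochberg adjustment. The fit was tested on simulated data. Precision is limited by 3 arrays per group.

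The 10 genes and all lists were chosen with earlier results of these data known. Among other complex IV genes, those called and the 3 with the largest difference in each direction were named, and the 5 nearest genes for *AA467197* and for genes with a range over 2 log2 units. The 3 tested subunits, the chromosomal neighbours and single genes of the marker lists were named after their values were seen.

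The alternatives were another scaling (quantile, or the median of detected probes), normexp with an offset of 50, the processed table, other probe filters, a mean over a gene's probes, marked spots kept, slide row as a block, each mouse left out, SAM (20 regroupings), the methods' t-test and eBayes with the trend and robust options together.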

Additional observations from a re-analysis of the deposited data

How the results depend on the processing

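No paired analysis was possible because no numbers pair the mice. Against 1296 genes called lower, 1476 called higher, and 4 lower and 0 higher among other complex IV genes, scaling to the median of the probes detected on each array gave 2585, 217 and 9 lower complex IV genes. Scaling to the median of a single set of probes, above background on at least 3 arrays, was added after this result had been seen, because the first setting used different probes on each array, and it gave 1935, 1115 and 7. Normexp correction gave 891 higher. Complex IV genes called lower were, against 4 of 24 tested, 1 of 19 in the processed table and 2 of 26 without the filter on dim probes. They were 2 of 24 with the mean of a gene's probes, 2 of 24 with SAM and 10 of 36 with marked spots kept. Over all genes, the lower counts in the same order were 1495 of 13218, 933 of 22112, 1005 of 14712, 930 of 14712 and 1794 of 16111. With the slide row as a block, 298 of 12352 genes were lower and 777 higher, with 0 of 14 complex IV genes. With marked spots kept and the row as a block, an alternative chosen after seeing the data, the counts were 496 and 880 of 16111 genes and 2 of 36. Without each mouse in turn, 716 to 1375 genes were lower (fewest without WT 2) and 1067 to 1407 higher, out of 12697 to 14518 tested. Complex IV genes called lower were then 2 to 6 out of 16 to 23 tested, with 2 of them without WT 1, WT 2, WT 3, KO 1 or KO 2. After adjustment, 6 genes were lower and 21 higher, against 0 and 0 with SAM, 0 and 1 with the methods' t-test and 123 and 160 with eBayes with trend and robust together. *AA467197* was higher in KO mice in all 22 settings, by 1.67 to 2.19, and *Cox6b2* by 0.20 to 0.66. *Cox4i2* ran from -0.17 to 0.48 and *Cox6a2* from -0.73 to 7.04. The cause of these shifts was not tested. Signals of *Cox6a2* on WT 3 were not well above background, so the difference against that mouse has no measured upper end.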
